A study of Mus musculus with 12 samples.

Results

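Voltage-gated calcium and sodium channel genes were compared in tumor-derived astrocytes, tumor granule neuron progenitors (GNPs) and normal astrocytes of the mouse. They were taken as the protein-coding genes whose symbol begins with Cacna, Cacnb or Cacng, or with Scn and a digit, with 1 row for each Ensembl gene. This gave 40 of the 46517 genes in the table. They comprise 10 calcium channel pores, 4 alpha2delta, 4 calcium beta and 8 gamma subunits, 10 sodium channel pores and 4 sodium beta subunits. Of the 40 genes, 34 had enough counts to be tested.

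Each group had 4 RNA-seq libraries, and the values are read counts per gene. GNPs, the proliferating cells that normally become granule neurons, are here the malignant cells of a cerebellar tumor, medulloblastoma. According to the labels, cells of every library were taken by laser capture microdissection from frozen sections of 8 µm, and the amplified cDNA held about 500 bp of each 3′ end. The strain is labelled C57BL/6 for tumor-derived and for normal astrocytes, and C57BL/7, C57BL/8, C57BL/9 and C57BL/10 for GNP libraries 1, 2, 3 and 4. A sample sheet deposited with the counts calls the normal astrocytes adult and cerebellar. The titles of all 4 GNP libraries carry the suffix cul, which that sheet spells out as cultured at its first GNP entry. The labels used here give no genotype, tumor model, treatment or age in time units, do not explain the number in each title, and name no marker by which cells were picked under the laser. Age, culture and labelled strain, where they differ, cannot be told apart from cell type.

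A voltage-gated calcium channel has a pore-forming alpha1 subunit that sets its type, an alpha2delta subunit that brings it to the membrane, and a cytoplasmic beta subunit that modulates its opening. Most gamma subunits now count as auxiliary proteins of AMPA-type glutamate receptors. A voltage-gated sodium channel is a single large pore protein joined by small beta subunits, and it starts and carries the action potential. In the cerebellum these genes are best known from Purkinje cells, granule neurons and interneurons, while astrocytes are known for far weaker voltage-gated currents.

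Libraries held 8679971 to 12626596 counts in tumor-derived astrocytes, 8154401 to 8673023 in GNPs and 8838441 to 11287457 in normal astrocytes. GNP libraries 1, 2 and 4 were far more alike than any other pair within a group: chi-square per degree of freedom was 1.43 to 7.52 for their 3 pairs, against 24.03 to 184.34 for the other 15 pairs. They were summed and counted as 1 sample, so GNP means have n = 2. The astrocyte markers summed to 957 to 2035 CPM in tumor-derived astrocytes, 471 to 692 CPM in GNPs and 5821 to 12254 CPM in normal astrocytes, where CPM are counts scaled to library size with TMM factors. Gja1, the main gap junction gene of astrocytes, was at or under 0.760 CPM in every library, while Aqp4, the astrocyte water channel, averaged 8.78 CPM in tumor-derived astrocytes, only 0.0175 CPM in GNPs and 20.2 CPM in normal astrocytes. Libraries labelled normal astrocyte also carried neuronal RNA: 10 Purkinje cell markers summed to 185 to 759 CPM in tumor-derived astrocytes, 90.1 to 95.8 CPM in GNPs and 4634 to 16545 CPM in normal astrocytes. In such bulk samples, fewer cells of a type and less RNA per cell cannot be told apart. If some captures came from the same mouse, the p-values below are too small.

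Tumor-derived astrocytes carried 3 channel genes above both other groups: the calcium beta subunit Cacnb3, the gamma subunit Cacng2 and the sodium beta subunit Scn3b. A larger group of 12 genes was lower in both tumor-derived astrocytes and GNPs than in normal astrocytes, among them the Purkinje and presynaptic calcium pore Cacna1a and the sodium channel genes Scn1a, Scn2a1, Scn8a and Scn2b. For 6 of these 12, tumor-derived astrocytes also exceeded GNPs. The shares of all tested genes with such joint patterns were not counted, so these numbers have no background beside them. For Cacnb3, Cacng2 and Scn3b the call against GNPs was lost in 2, 2 and 5 of the 20 alternative settings. Against normal astrocytes, 5 of 34 tested genes rose in tumor-derived astrocytes (14.7%, where 17.9% of all 16374 tested genes rose) and 12 fell (35.3%, where 14.4% of all genes fell), by edgeR's quasi-likelihood test at an adjusted p under 0.05. Against GNPs, 9 rose in tumor-derived astrocytes (26.5%, beside 6.62% of all genes) and 0 fell (beside 3.26%). Also at an unadjusted p under 0.05, 0 channel genes fell, but the share of all genes at that limit was not counted. DESeq2 called 0 channel genes lower, where it called 1010 of all genes lower. Between GNPs and normal astrocytes, 3 rose in GNPs (8.82%, beside 12.5%) and 13 fell (38.2%, beside 11.6%). The median log2 fold change of the 34 genes was -0.69 for tumor-derived over normal astrocytes, 1.28 for tumor-derived astrocytes over GNPs and -1.36 for GNPs over normal astrocytes, beside 0.11, 0.06 and 0.05 for all genes in that order. Pairs of comparisons share libraries and are not independent. Fewer genes were called against GNPs with GNP library 3 left out or kept alone. Either way 1 GNP sample remained, assumed to vary like the other groups. Log2 fold changes over GNPs were then 1.27 and 1.62 for Cacnb3, 2.32 and 2.11 for Cacng2, and 3.85 and 3.05 for Scn3b. That of Cacna1a moved more, from 5.15 to 8.20 and 4.19.

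**Figure D1:**
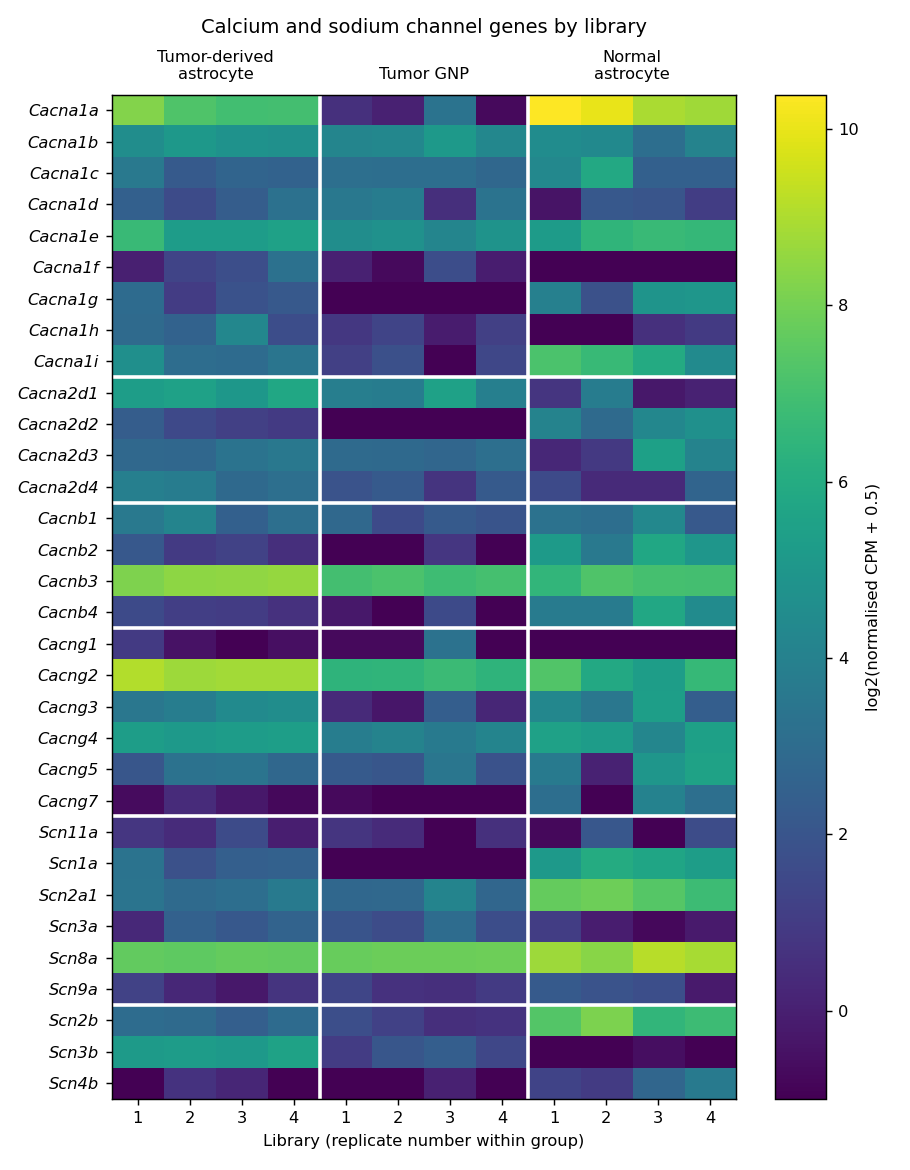
Level of 32 tested channel genes in each of the 12 libraries, as log2 of normalised CPM plus a pseudocount of 0.5 (colour), with genes in rows by role (white lines: calcium pores, alpha2delta, calcium beta, gamma, sodium pores, sodium beta) and libraries in columns by group. Scn2a1 and Scn2b are bright in the 4 normal libraries alone, and Scn3b is bright in the 4 tumor-derived libraries.

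**Figure D2:**
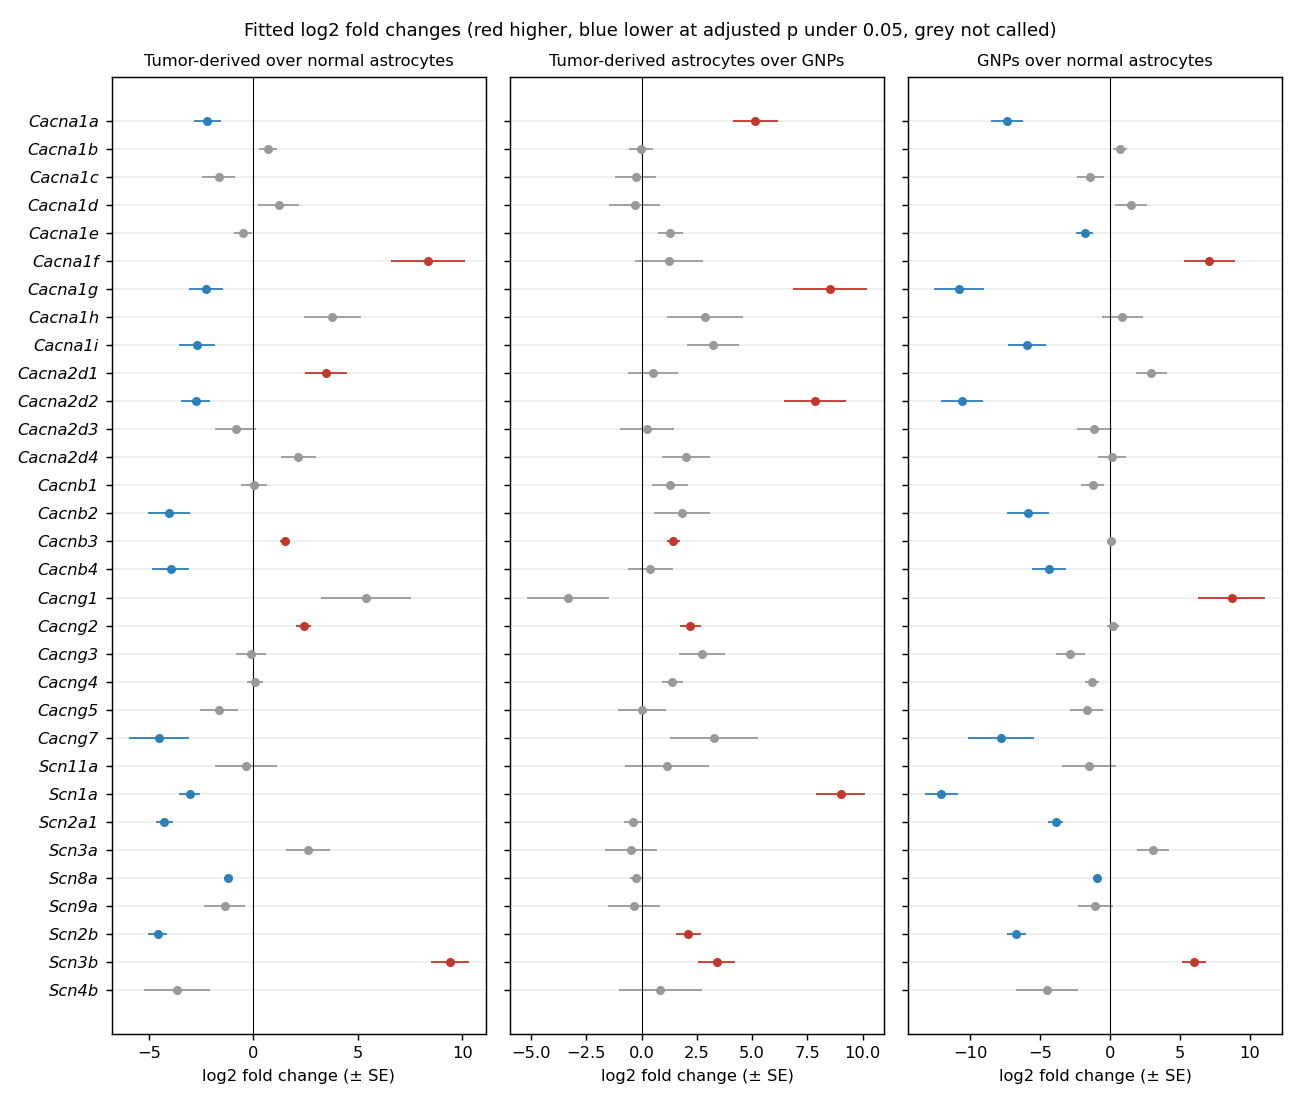
Fitted log2 fold change ± SE (x axis) of 32 tested channel genes (y axis, by role) in the 3 comparisons, with a positive value meaning higher in the group named first and with a separate x scale in each panel. Coloured points passed an adjusted p of 0.05: 5 higher and 11 lower in the left panel, 8 higher and 0 lower in the middle, 3 higher and 12 lower on the right. Points past 8 on either side belong to genes at or near 0 counts in 1 group, where the fitted size depends on the prior count.

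Promoter sequences are printed for the genes with the smallest p in each direction of the comparison of tumor-derived with normal astrocytes, among the 12 genes with a window lying wholly outside the annotated gene. They come from 1 gene that rose (Cacna2d1) and 2 that fell (Scn2a1 and Scn2b), too few to relate sequence to direction. Of the 5 genes that rose, Cacna2d1 had the largest p. RefSeq's promoter table (GRCm38.p6) held 41 entries for 30 of the 40 genes, and each sequence below is the 250 bases before the start, on the plus strand. Cacna2d1 lies at chr5:15934441-15934690, Scn2a1 (Scn2a in that table, 1 of 2 entries) at chr2:65620519-65620768 and Scn2b at chr9:45117626-45117875. Capitals mark matches to GGGCGG or its reverse complement CCGCCC, the core of the GC box.
Cacna2d1: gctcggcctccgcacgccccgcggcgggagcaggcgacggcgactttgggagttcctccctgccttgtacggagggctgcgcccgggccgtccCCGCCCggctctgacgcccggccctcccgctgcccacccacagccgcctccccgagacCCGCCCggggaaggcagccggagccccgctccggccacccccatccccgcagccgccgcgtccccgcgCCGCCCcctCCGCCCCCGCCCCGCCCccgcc
Scn2a1: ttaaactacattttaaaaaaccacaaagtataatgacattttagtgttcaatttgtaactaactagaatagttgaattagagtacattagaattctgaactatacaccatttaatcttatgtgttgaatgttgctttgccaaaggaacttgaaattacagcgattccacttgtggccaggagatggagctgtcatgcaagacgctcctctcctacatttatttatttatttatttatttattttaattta
Scn2b: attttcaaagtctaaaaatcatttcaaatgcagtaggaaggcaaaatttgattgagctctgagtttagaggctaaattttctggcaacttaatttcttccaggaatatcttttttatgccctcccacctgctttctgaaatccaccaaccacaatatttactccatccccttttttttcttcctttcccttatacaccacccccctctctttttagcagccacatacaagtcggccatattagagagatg

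The Cacna2d1 window was 82.4% G and C and held 6 GC box matches, some of them touching. The Scn2a1 window was 29.6% and the Scn2b window 38.4% G and C, and neither held any of the searched motifs on either strand. Both strands were searched. Over the 41 windows of channel genes, the GC box core GGGCGG was in 36.6% (32.7% of all 32851 promoters of that length) and CCAAT, the letters of the CCAAT box, in 24.4% (33.8%). The letters TATAAA, of the TATA box, were in 4.88% (12.4%). The E-box CAGCTG was in 26.8% (13%). The median content of G and C was 56.8% in these windows and 52.4% in all promoters. These matches describe the letters and show no bound factor.

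Among the calcium pores, Cacna1a, Cacna1g and Cacna1i fell and Cacna1f rose in tumor-derived astrocytes against normal astrocytes, out of 9 tested. Cacna1a encodes the P/Q-type channel of Purkinje cells and presynaptic terminals, lies at chr8:84388440-84640246 (mm10) and is the gene mutated in the tottering mouse. Its levels were 306, 153, 123 and 126 CPM in tumor-derived astrocytes, 0.985, 0.525, 9.71 and 0.109 in GNPs, and 1344, 1027, 487 and 438 CPM in normal astrocytes. No library of 1 group reached into another, with normal astrocytes highest, tumor-derived astrocytes between and GNPs lowest. Cacna1a was 4.66-fold lower in tumor-derived than in normal astrocytes on mean CPM, with a log2 fold change of -2.22 ± 0.65 and an adjusted p of 0.0223 in edgeR. It was 34.5-fold higher in tumor-derived astrocytes than in GNPs (log2 fold change 5.15 ± 1.03, adjusted p = 0.0112) and 161-fold lower in GNPs than in normal astrocytes (-7.37 ± 1.15, adjusted p = 0.000849). GNP library 3 held most of the GNP signal: without it the log2 fold change was 8.20 for tumor-derived astrocytes over GNPs and -10.42 for GNPs over normal astrocytes, both still called. The call against GNPs was lost with library 3 alone (0.0556) and with no filter on low counts (0.0626). The call against normal astrocytes was lost without tumor-derived replicate 2, 3 or 4 or without normal replicate 1 (adjusted p 0.0534 to 0.0655) and with no filter on low counts (0.0900). Tumor-derived replicate 1, the highest of its group for Cacna1a, also had the highest Purkinje cell sum of that group (759 CPM, against 185 to 280 CPM in the other 3), and the part of such transcripts in the result was not tested.

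Cacna1g and Cacna1i encode low-voltage-activated T-type channels, which open near rest and support bursts of spikes. Cacna1g had 7.47, 1.56, 3.18 and 4.08 CPM in tumor-derived astrocytes, was at 0 in all 4 GNP libraries, and had 15.2, 3.06, 29.0 and 31.3 CPM in normal astrocytes. Normal replicate 2 lay within the tumor-derived range, so those groups overlapped, while GNPs lay below both. Cacna1g fell by 2.27 ± 0.80 on the log2 scale in tumor-derived against normal astrocytes (adjusted p = 0.0488, edgeR), and this call was lost with RLE or upper quartile scaling and without any 1 of tumor-derived replicates 2, 3 and 4 or normal replicates 1, 3 and 4 (adjusted p 0.0510 to 0.122). Taking 3 counts per library as the floor of a group at 0, Cacna1g was at least 12.7-fold higher in tumor-derived astrocytes than in GNPs (adjusted p = 0.0120) and at least 61.3-fold lower in GNPs than in normal astrocytes (0.00153). The first of these was lost without GNP replicate 3 (0.0651) and with it alone (0.137). Cacna1i had 24.9, 7.91, 7.34 and 10.2 CPM in tumor-derived astrocytes, 1.75, 2.94, 0 and 2.19 in GNPs, and 141, 102, 62.5 and 21.2 CPM in normal astrocytes. Tumor-derived replicate 1 exceeded normal replicate 4, and GNPs lay below both groups. It fell by 2.70 ± 0.85 in tumor-derived against normal astrocytes (adjusted p = 0.0300), and the call was lost without tumor-derived replicate 2, 3 or 4 or normal replicate 1 (0.0714 to 0.0838) and with no filter (0.0524). Without tumor-derived replicate 1 it was -3.29. Cacna1i fell by 5.92 ± 1.36 in GNPs against normal astrocytes (adjusted p = 0.00856), with -5.01 without GNP replicate 3, which had 0 counts. Its difference between tumor-derived astrocytes and GNPs, 3.22 ± 1.18, did not pass (0.101).

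Cacna1f, the L-type pore best known from photoreceptors of the retina, was low but moved the other way. It had 0.506, 2.04, 2.85 and 9.02 CPM in tumor-derived astrocytes, 0.547, 0.105, 2.69 and 0.438 in GNPs, and 0 counts in all 4 normal libraries. Both tumor groups lay above normal astrocytes and overlapped with each other. Against the floor, Cacna1f was at least 12.5-fold higher in tumor-derived than in normal astrocytes (adjusted p = 0.00768, edgeR) and at least 5.31-fold higher in GNPs (0.0202). Its fitted log2 fold change of 8.36 for tumor-derived over normal astrocytes was 7.38 without tumor-derived replicate 4, which held most of the counts, and was still called there. With the 2 groups alone Cacna1f did not pass the filter on low counts and was not tested. The GNP call was lost without GNP replicate 3 (0.108). Cacna1e, the R-type pore, had 104, 39.2, 38.6 and 44.8 CPM in tumor-derived astrocytes, 23.3, 26.8, 17.6 and 28 in GNPs, and 38.1, 86.0, 106 and 94.5 CPM in normal astrocytes. Tumor-derived and normal astrocytes overlapped (log2 fold change -0.52 ± 0.43, adjusted p = 0.383), and GNPs lay below both. Cacna1e fell by 1.82 ± 0.58 in GNPs against normal astrocytes (0.0392). That call was lost without tumor-derived replicate 4, GNP replicate 3 or normal replicate 3 or 4, and with GNP library 3 alone or the 2 groups alone (adjusted p 0.0505 to 0.227).

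The other 4 tested pores passed in no comparison. Cacna1b, the N-type presynaptic pore, ranged over 23.7 to 32.7 CPM in tumor-derived astrocytes, 17.5 to 35.5 CPM in GNPs and 8.21 to 22.8 CPM in normal astrocytes. Cacna1c, an L-type pore of neurons and heart, ranged over 4.19 to 11.6, 6.46 to 8.54 and 5.13 to 57.3 CPM in the same order, and Cacna1d, its close L-type relative, over 2.52 to 9.11, 0.930 to 13.2 and 0.270 to 3.85 CPM. For Cacna1b, tumor-derived libraries lay above normal ones, with a log2 fold change of 0.70 ± 0.43 (adjusted p = 0.235, edgeR). Its other pairs of groups overlapped, as did all pairs of Cacna1c and Cacna1d. Counts of Cacna1c and Cacna1d are uncertain. Dcp1b and Dcp1a overlap them on the opposite strand with 2513 and 457 counts, against 1369 and 622 of their own. Use of strand is not given in the sources used here. Cacna1h, the third T-type pore, had 7.09, 5.51, 18.6 and 2.75 CPM in tumor-derived astrocytes, 1.31, 2.0, 0.413 and 1.75 in GNPs, and 0, 0, 1.02 and 1.43 CPM in normal astrocytes. Tumor-derived libraries lay above all others, yet the difference to normal astrocytes (log2 fold change 3.77 ± 1.36) had an adjusted p of 0.0512. It was called in 8 of 20 alternative settings, among them DESeq2 (0.00397). Cacna1s, the pore of skeletal muscle, had 0 counts everywhere. Striated muscle markers summed to 69.6 to 1289 CPM in tumor-derived astrocytes, 718 to 1137 CPM in GNPs and 46.6 to 445 CPM in normal astrocytes. The part of muscle transcripts in the channel levels was not tested.

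Cacna2d1 and Cacna2d2, both alpha2delta subunits, differed in opposite directions between tumor-derived and normal astrocytes. Cacna2d1, a subunit bound by gabapentin, had 40.6, 46.0, 32.0 and 54.0 CPM in tumor-derived astrocytes, 14.2, 13.4, 44.9 and 14.5 in GNPs, and 1.17, 13.5, 0.339 and 0.570 CPM in normal astrocytes. Tumor-derived libraries lay above all normal ones, and GNP library 3 lay among the tumor-derived ones. Cacna2d1 was 11.1-fold higher in tumor-derived than in normal astrocytes on mean CPM (log2 fold change 3.48 ± 1.02, adjusted p = 0.0215, edgeR). Without normal replicate 2 the log2 fold change was 5.93 (adjusted p = 0.000144), and without tumor-derived replicate 4 the call was lost (0.0506). Neither its difference to GNPs (0.52 ± 1.15, 0.810) nor that of GNPs to normal astrocytes (2.96 ± 1.10, 0.0685) passed. Cacna2d2, which is mutated in the ataxic ducky mouse and is high in Purkinje cells, had 4.56, 2.40, 1.75 and 1.42 CPM in tumor-derived astrocytes, 0 in all 4 GNP libraries, and 16.6, 7.14, 19.0 and 25.9 CPM in normal astrocytes. The 3 groups did not overlap. It fell by 2.76 ± 0.69 in tumor-derived against normal astrocytes (adjusted p = 0.0119), was at least 7.91-fold higher in tumor-derived astrocytes than in GNPs (0.00721, lost with GNP library 3 alone at 0.0993) and was at least 53.6-fold lower in GNPs than in normal astrocytes (0.000533). Cacna2d3 (6.59 to 11.2, 6.20 to 8.43 and 0.719 to 43.5 CPM in tumor-derived astrocytes, GNPs and normal astrocytes) passed in no comparison. Cacna2d4 did not pass either, at 7.01 to 14.6, 1.14 to 4.20 and 0.762 to 5.80 CPM. Its tumor-derived libraries lay above all others, and its difference to normal astrocytes was called in 4 of 20 alternative settings. Lrtm2 overlaps Cacna2d4 on the opposite strand with 946 counts, against 603.

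Of the calcium beta subunits, Cacnb3 rose and Cacnb2 and Cacnb4 fell in tumor-derived against normal astrocytes. Cacnb3 (chr15:98632220-98644530, mm10), a subunit of brain N-type channels among others, had 291, 356, 357 and 389 CPM in tumor-derived astrocytes, 125, 143, 114 and 129 in GNPs, and 89.6, 151, 129 and 125 CPM in normal astrocytes. All 4 tumor-derived libraries lay above the other 8, which overlapped. Cacnb3 was 2.82-fold higher in tumor-derived than in normal astrocytes (a log2 fold change of 1.5 ± 0.24, adjusted p = 0.000832, edgeR) and 2.83-fold higher than in GNPs (1.43 ± 0.30, 0.0139). The second call was lost without GNP replicate 3 (0.129) and with it alone (0.103), while GNPs and normal astrocytes did not differ beyond their spread (0.06 ± 0.28, 0.905). Cacnb2, a beta subunit of heart and brain L-type channels, had 3.92, 1.44, 1.86 and 0.949 CPM in tumor-derived astrocytes, 0, 0, 1.24 and 0 in GNPs, and 36.0, 11.7, 54.7 and 31.3 CPM in normal astrocytes. Cacnb4, the beta subunit mutated in the lethargic mouse and a partner of Cacna1a in the cerebellum, had 2.41, 1.68, 1.53 and 1.04 CPM in tumor-derived astrocytes, 0.328, 0, 2.48 and 0 in GNPs, and 12.9, 12.8, 56.0 and 22.0 CPM in normal astrocytes. For both genes every normal library lay above every other library, and tumor-derived astrocytes overlapped GNPs. The pseudogene Gm13268 overlaps Cacnb2 on the opposite strand with 323 counts over all libraries, against 1560. Gm13541 likewise overlaps Cacnb4 with 275 counts, against 1234. Cacnb2 was 16.3-fold and Cacnb4 15.6-fold lower in tumor-derived than in normal astrocytes, with log2 fold changes of -4.03 ± 1.00 (adjusted p = 0.00998) and -3.96 ± 0.89 (0.00647). Without normal replicate 3 the value for Cacnb4 was -3.22. In GNPs against normal astrocytes Cacnb2 fell by 5.86 ± 1.51 (0.0151) and Cacnb4 fell by 4.36 ± 1.24 (0.0238). Without GNP replicate 3, which held all of the GNP counts of Cacnb2 and most of those of Cacnb4, the fitted log2 fold changes were -11.59 and -7.65, both still called. With the 2 groups alone both calls were lost (0.0590 and 0.0833), and that of Cacnb4 also with GNP library 3 alone (0.104). Without normal replicate 3, Cacnb4 was at -3.61 in that comparison. Cacnb1, the beta subunit of the muscle channel and also present in brain, passed in no comparison, at 5.15 to 16.9 CPM in tumor-derived astrocytes, 2.42 to 6.79 CPM in GNPs and 3.99 to 19.6 CPM in normal astrocytes.

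Cacng2, or stargazin, carries AMPA receptors to the synapse and is the gene mutated in the stargazer mouse. It had 542, 423, 447 and 446 CPM in tumor-derived astrocytes, 85.5, 86.3, 108 and 83.5 in GNPs, and 155, 58.9, 39.7 and 98.1 CPM in normal astrocytes. The 4 tumor-derived libraries lay far above the other 8, and GNPs lay within the normal range. Cacng2 was 5.28-fold higher in tumor-derived than in normal astrocytes (a log2 fold change of 2.40 ± 0.37, adjusted p = 0.000791, edgeR) and 4.81-fold higher than in GNPs (2.21 ± 0.49, 0.0171). The second call was lost without GNP replicate 3 (0.105) and with it alone (0.177). A transcript on the opposite strand, A730060N03Rik, overlaps Cacng2 with 2288 counts over all libraries, against 23740. Cacng7, another auxiliary subunit of AMPA receptors, had 0.127, 0.839, 0.329 and 0.0949 CPM in tumor-derived astrocytes, 0.109, 0, 0 and 0 in GNPs, and 8.09, 0, 16.3 and 8.36 CPM in normal astrocytes. Normal replicate 2 was at 0 and overlapped both tumor groups, while the other 3 normal libraries lay above them. Cacng7 fell by 4.53 ± 1.45 in tumor-derived against normal astrocytes (adjusted p = 0.0315), lost without tumor-derived replicate 1, 3 or 4 or normal replicate 3 (0.0644 to 0.0870), and it was -5.42 without tumor-derived replicate 2 and -3.90 without normal replicate 3. With 1 GNP count against 370 counts in normal astrocytes, the ratio of normal astrocytes to GNPs was 328 with a 95% counting interval of 58.5 to 12982 (adjusted p = 0.0316). That call was lost without GNP replicate 3 (0.156), with it alone (0.147) and with the 2 groups alone (0.0880), and without GNP replicate 1, the library with the count, the fitted value was -9.44.

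Cacng1, the gamma subunit of the skeletal muscle calcium channel, had 1.39, 0.240, 0 and 0.190 CPM in tumor-derived astrocytes, 0.109, 0.105, 9.30 and 0 in GNPs, and 0 in all 4 normal libraries. GNP library 3 held 90 of the 92 GNP counts. The call of GNPs over normal astrocytes (adjusted p = 0.0285, at least 16.3-fold) ended without that library (0.370). The striated muscle sum of GNP library 3, 718 CPM, was the lowest of the 4 GNP libraries (1080 to 1137 CPM in the others). Genes of that list differed: Acta1 was highest in library 3 (48.5 CPM, against 11.4 to 35.5 CPM), while Tnnt1, Myog and Myod1 were lowest there. The part of muscle transcripts in the Cacng1 counts was not tested. Cacng3 and Cacng4, which escort AMPA receptors like Cacng2, were at 11.0 to 23.3 and 35.5 to 40.8 CPM in tumor-derived astrocytes, 0.315 to 4.75 and 12.1 to 17.3 CPM in GNPs, and 4.75 to 41.4 and 18.5 to 45.3 CPM in normal astrocytes. For both, all tumor-derived libraries lay above all GNP libraries, with log2 fold changes of 2.72 ± 1.04 (adjusted p = 0.114) and 1.40 ± 0.49 (0.0907) that did not pass. Cacng5 did not pass either, with 3.67 to 9.97 CPM in tumor-derived astrocytes, 3.18 to 10.5 CPM in GNPs and 0.566 to 47.4 CPM in normal astrocytes. Cacng6 had 0 counts and Cacng8 2 counts over all 12 libraries and were not tested. Cacng1, Cacng4 and Cacng5 are neighbours on chromosome 11, with gaps of 15.8 and 80.0 kb, and their levels did not move as a block.

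**Figure D3:**
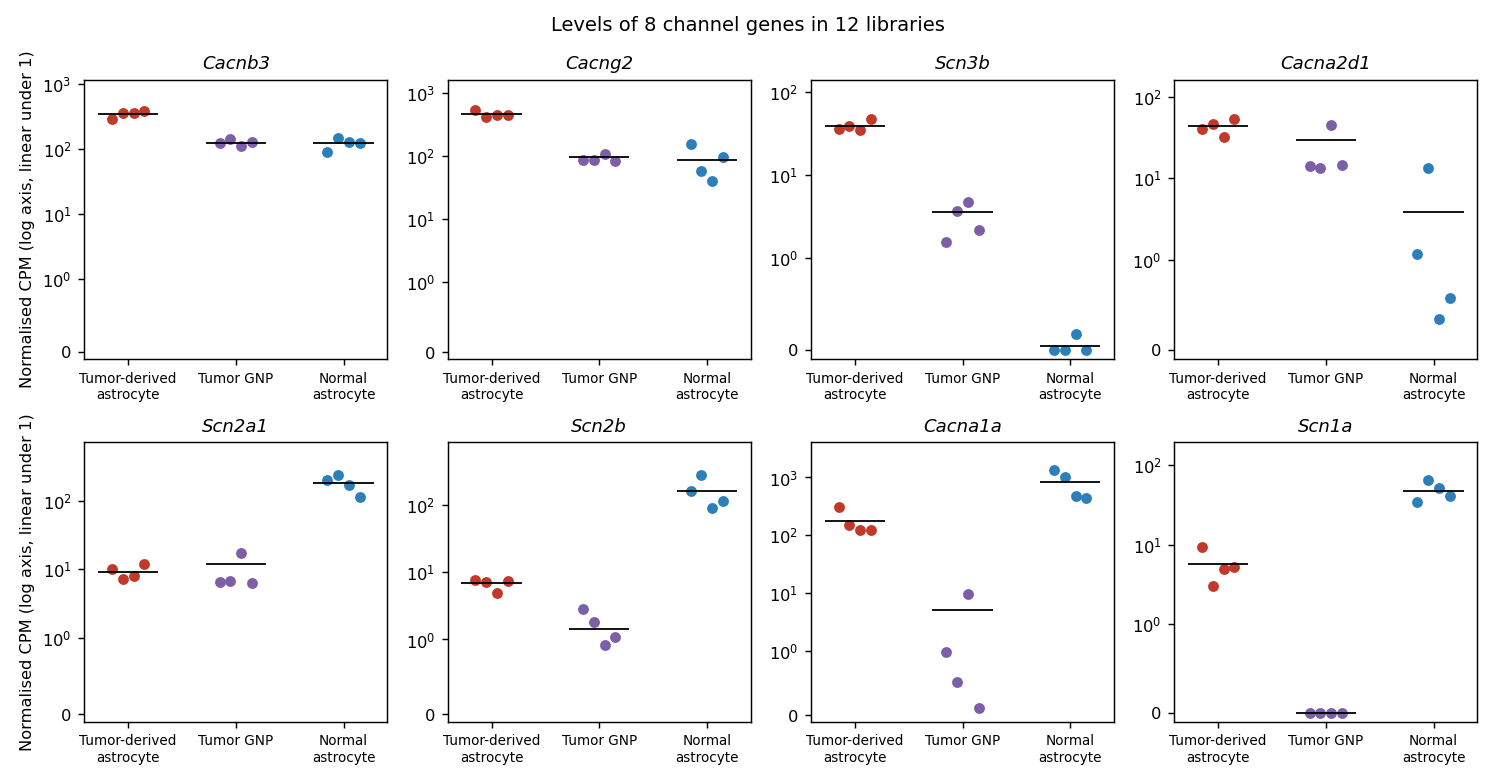
Normalised CPM (y axis, log scale that is linear under 1) of 8 channel genes in the 4 libraries of each group (points) with the group mean (line; for GNPs over n = 2 after libraries 1, 2 and 4 are averaged). In the upper row tumor-derived astrocytes are highest for Cacnb3, Cacng2 and Scn3b, and for Cacna2d1 they share their range with GNP library 3. In the lower row normal astrocytes are highest for Scn2a1, Scn2b, Cacna1a and Scn1a.

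Of the 7 tested sodium pores, Scn1a, Scn2a1 and Scn8a were lower in both tumor groups than in normal astrocytes, and none rose. These are the main sodium pores of central neurons, with Scn2a1 and Scn8a known from axon initial segments and Scn1a from inhibitory neurons. Scn2a1 had 10.0, 7.19, 8.11 and 12 CPM in tumor-derived astrocytes, 6.57, 6.72, 17.2 and 6.35 in GNPs, and 204, 238, 169 and 113 CPM in normal astrocytes. Every normal library lay above every tumor library, and the tumor groups overlapped. Scn2a1 was 19.4-fold lower in tumor-derived than in normal astrocytes (a log2 fold change of -4.28 ± 0.41, adjusted p = 3.4e-05, edgeR) and 15.3-fold lower in GNPs than in normal astrocytes (-3.90 ± 0.54, 0.00037; -4.65 without GNP replicate 3). Tumor-derived astrocytes and GNPs did not differ beyond their spread (-0.37 ± 0.44, 0.619). Scn1a had 9.5, 3.0, 4.93 and 5.22 CPM in tumor-derived astrocytes, 0 in all 4 GNP libraries, and 34.3, 64.1, 50.8 and 40.4 CPM in normal astrocytes. The 3 groups did not overlap. Scn1a fell by 3.06 ± 0.51 in tumor-derived against normal astrocytes (adjusted p = 0.00139). Against the floor it was at least 17.7-fold higher in tumor-derived astrocytes than in GNPs (0.00127), the one difference from GNPs called in all 20 alternative settings, and at least 148-fold lower in GNPs than in normal astrocytes (4.76e-05).

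Scn8a changed less. Its levels were 199, 190, 206 and 200 CPM in tumor-derived astrocytes, 215, 230, 226 and 232 in GNPs, and 428, 333, 582 and 481 CPM in normal astrocytes. Normal libraries lay above all others, and tumor-derived astrocytes lay just below GNPs. Scn8a was 2.29-fold lower in tumor-derived than in normal astrocytes (a log2 fold change of -1.20 ± 0.22, adjusted p = 0.002, edgeR) and 2.02-fold lower in GNPs (-0.95 ± 0.28, 0.0261). The GNP call was lost without GNP replicate 3 (0.159), with it alone (0.123), with the 2 groups alone (0.0646) and with no filter (0.0567). Tumor-derived astrocytes and GNPs did not pass against each other (-0.25 ± 0.26, 0.582).

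Scn3a, the pore typical of the embryonic brain, went the other way without passing: it had 0.760, 5.27, 3.94 and 5.60 CPM in tumor-derived astrocytes, 3.39, 2.63, 7.65 and 2.74 in GNPs, and 1.62, 0.453, 0.0847 and 0.380 CPM in normal astrocytes. All GNP libraries and 3 of the 4 tumor-derived ones lay above all normal ones. The adjusted p was 0.0765 for tumor-derived and 0.0768 for GNPs against normal astrocytes, at log2 fold changes of 2.60 ± 1.05 and 3.07 ± 1.17. Scn3a, Scn2a1, Scn1a, Scn9a and Scn7a lie in that order on chromosome 2 with gaps of 53.1, 503.3, 39.2 and 38.5 kb, so that genes with fitted changes of opposite sign stand side by side. Scn9a and Scn11a, pores of pain-sensing neurons, passed in no comparison. In tumor-derived astrocytes, GNPs and normal astrocytes in that order, Scn9a ranged over 0.329 to 1.90, 0.930 to 2.08 and 0.380 to 4.13 CPM and Scn11a over 0.475 to 2.52, 0 to 1.20 and 0 to 3.74 CPM. The groups of both overlapped. Scn9a counts are uncertain, since the antisense gene Gm13629 overlaps it with 3097 counts, against 200. Scn4a, the muscle pore, and Scn10a, of sensory neurons, had 1 and 2 counts over all libraries, and Scn7a, a sodium-sensing relative, had 15, of which 11 were in GNP library 3. They were not tested.

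Sodium beta subunits differed in both directions. Scn3b (chr9:40269216-40291618, mm10), which modulates gating and membrane delivery of brain sodium pores, had 36.3, 38.6, 35.1 and 47.2 CPM in tumor-derived astrocytes, 1.53, 3.68, 4.75 and 2.19 in GNPs, and 0, 0, 0.169 and 0 CPM in normal astrocytes. The 3 groups did not overlap, with tumor-derived astrocytes highest and normal astrocytes at or near 0. With 1426 counts in tumor-derived and 2 counts in normal astrocytes, both in replicate 3, the ratio was 840 with a 95% counting interval of 232 to 6940 (adjusted p = 3.4e-05, edgeR). GNPs stood at 64.9 times normal astrocytes by the same measure (17.6 to 542, adjusted p = 0.00055, lost with the 2 groups alone at 0.0593). The fitted log2 fold changes of 9.42 and 6.02 were 11.82 and 8.40 without normal replicate 3. Scn3b was 10.9-fold higher in tumor-derived astrocytes than in GNPs on mean CPM (log2 fold change 3.40 ± 0.85, 0.028), which was lost without tumor-derived replicate 2, 3 or 4 or GNP replicate 3 and with GNP library 3 alone (0.0694 to 0.232).

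Scn2b, a partner of the pores at nodes and initial segments, ran in the opposite direction. Scn2b had 7.72, 7.07, 4.93 and 7.40 CPM in tumor-derived astrocytes, 2.85, 1.79, 0.930 and 1.09 in GNPs, and 163, 282, 90.9 and 113 CPM in normal astrocytes. The 3 groups did not overlap, with normal astrocytes highest and GNPs lowest. Scn2b was 23.9-fold lower in tumor-derived than in normal astrocytes (a log2 fold change of -4.58 ± 0.46, adjusted p = 4.54e-05, edgeR). In GNPs against normal astrocytes it fell by 6.70 ± 0.71 (5.7e-05). Against GNPs, tumor-derived astrocytes were higher by 2.12 ± 0.56 (0.0362). That call was lost without GNP replicate 3 (0.196), with it alone (0.122) and without any 1 of the tumor-derived replicates or GNP replicate 4 (0.0504 to 0.0762). Scn4b, which lies 8.4 kb from Scn2b and is known from Purkinje cells, had 0, 1.08, 0.657 and 0 CPM in tumor-derived astrocytes, 0, 0, 0.517 and 0 in GNPs, and 1.98, 1.47, 6.27 and 12.5 CPM in normal astrocytes. Its normal libraries lay above all others, but its adjusted p against normal astrocytes was 0.0915 in tumor-derived astrocytes and 0.159 in GNPs.

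Markers of Purkinje cells and of mature granule neurons differed between the groups in the same direction as the genes that fell, and markers of young neurons in the other. All 10 Purkinje cell markers and 7 of 8 mature granule neuron markers fell in tumor-derived against normal astrocytes, and 10 of 10 and 8 of 8 fell in GNPs. Pcp2, a gene nearly restricted to Purkinje cells in the cerebellum, averaged 68.0 CPM in tumor-derived astrocytes, 0 CPM in GNPs and 2973 CPM in normal astrocytes. Pcp2, Car8 and Ppp1r17 were at 0 in GNPs, as was Gabra6, the mature granule neuron receptor subunit, while no listed marker of either list was at 0 in tumor-derived or normal astrocytes. The granule neuron list summed to 191 to 515 CPM in tumor-derived astrocytes, 138 to 179 CPM in GNPs and 1040 to 3597 CPM in normal astrocytes, and the interneuron list to 939 to 1765, 97.7 to 140 and 879 to 4182 CPM. Interneuron and astrocyte markers mostly ran the same way. Of 6 tested interneuron markers, 1 rose and 4 fell in tumor-derived against normal astrocytes, and 0 rose and 4 fell in GNPs. Of 9 tested astrocyte markers, 1 rose and 5 fell in tumor-derived against normal astrocytes, and 0 rose and 6 fell in GNPs. The part of these cell types in the channel differences was not tested. Markers of young neurons, which GNPs give rise to, summed to 1516 to 1898 CPM in tumor-derived astrocytes, 1716 to 1876 CPM in GNPs and 1210 to 1919 CPM in normal astrocytes. Although these sums overlapped, 4 of 7 rose and 1 fell in tumor-derived against normal astrocytes (median log2 fold change 2.07), and 4 rose and 0 fell in GNPs against normal astrocytes (2.82). Dcx, a microtubule protein of young neurons, averaged 98.1 CPM in tumor-derived astrocytes, 141 CPM in GNPs and 0.755 CPM in normal astrocytes. The sums of progenitor and cell cycle markers were 1664 to 2719, 2304 to 2347 and 103 to 213 CPM in the same order.

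Among the non-neuronal lists, only the microglial one had sums in all tumor-derived libraries above those of both other groups. Microglial markers summed to 587 to 794 CPM in tumor-derived astrocytes, 2.08 to 6.90 CPM in GNPs and 168 to 496 CPM in normal astrocytes, with 7 of 8 tested higher in tumor-derived astrocytes than in GNPs and 2 of 8 higher than in normal astrocytes. P2ry12, Cx3cr1 and Aif1 were at 0 in GNPs. Endothelial markers summed to 144 to 186, 1.03 to 5.04 and 63.7 to 185 CPM, and oligodendrocyte lineage markers to 154 to 231, 47.6 to 52.3 and 116 to 510 CPM, in the same order. Their part in the levels of Cacnb3, Cacng2 and Scn3b was not tested.

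**Figure D4:**
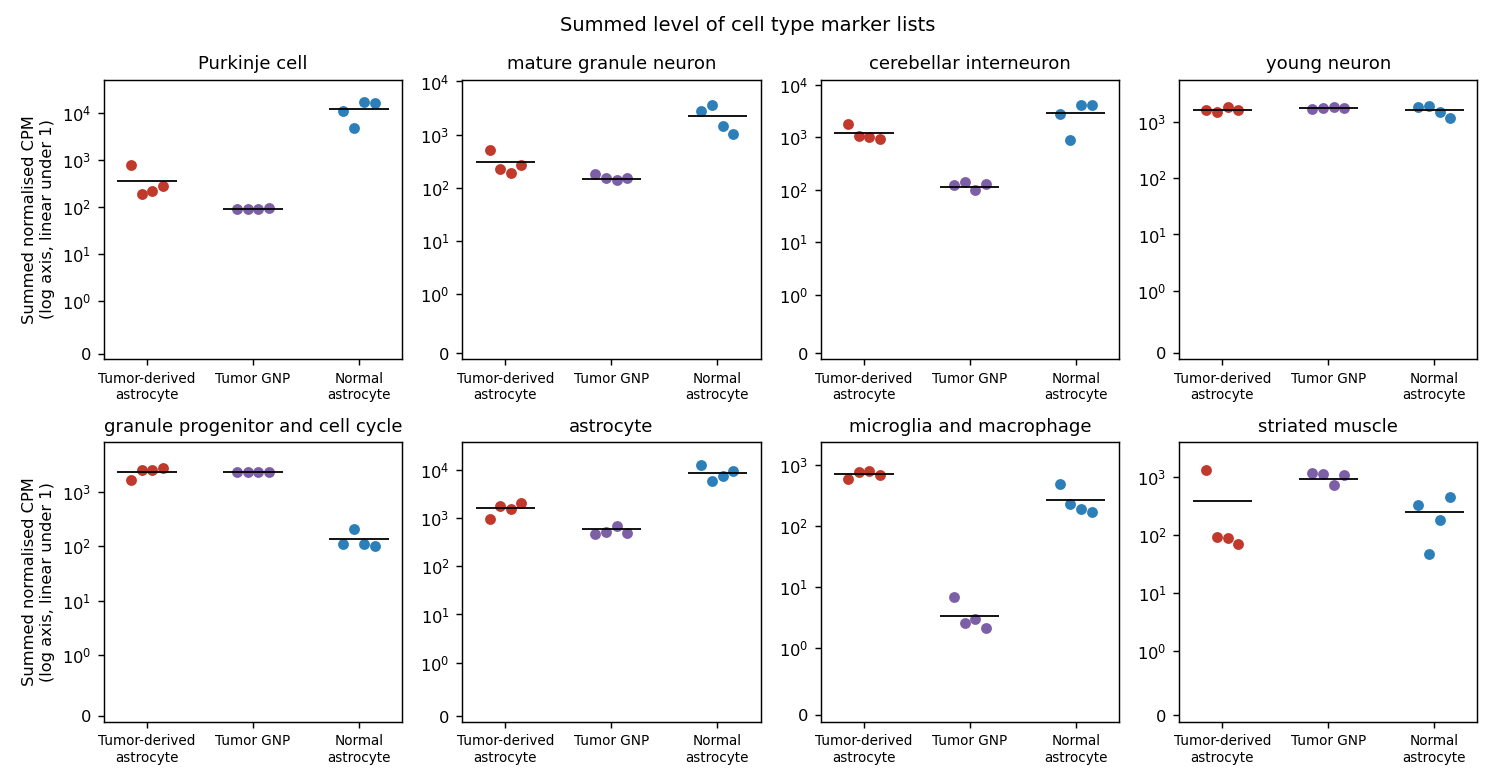
Summed normalised CPM (y axis, log scale that is linear under 1) of 8 cell type marker lists in the 4 libraries of each group (points), with group means (lines; n = 2 for GNPs). Purkinje cell and astrocyte lists are highest in normal astrocytes, the microglial list is highest in tumor-derived astrocytes, and the sums of the young neuron list overlap between all groups although 4 of its 7 markers were called higher in each tumor group than in normal astrocytes. Tumor-derived replicate 1 stands apart for Purkinje cell (759 CPM) and striated muscle markers (1289 CPM).

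Genes that work with these channels were counted against the shares of all tested genes, which were 17.9% higher and 14.4% lower in tumor-derived than in normal astrocytes, 6.62% and 3.26% against GNPs, and 12.5% and 11.6% in GNPs against normal astrocytes. Of 12 anchors and cytoplasmic partners of sodium channels, 0 rose and 8 fell in tumor-derived against normal astrocytes (median log2 fold change -1.65), 2 rose and 0 fell against GNPs (-0.14), and 0 rose and 5 fell in GNPs against normal astrocytes (-1.37). Fgf12, a cytoplasmic modulator of sodium pores, averaged 4.08 ± 1.52 CPM in tumor-derived astrocytes (SD, n = 4), 6.47 ± 4.48 CPM in GNPs (n = 2) and 25.5 ± 5.09 CPM in normal astrocytes (n = 4), and fell by 2.64 ± 0.55 in tumor-derived against normal astrocytes (adjusted p = 0.00422). Nedd4l, a ubiquitin ligase of sodium channels, fell by 1.53 ± 0.35 (0.0064). Nfasc, an adhesion protein of initial segments and nodes, averaged 46.2 ± 21.7 CPM in tumor-derived astrocytes, 6.62 ± 5.86 CPM in GNPs and 208 ± 80.8 CPM in normal astrocytes. It was higher by 2.69 ± 0.70 in tumor-derived astrocytes than in GNPs (0.0351) and fell by 4.85 ± 0.80 in GNPs against normal astrocytes (0.00117). Sptbn4, the spectrin of the same sites, had log2 fold changes of 2.58 ± 0.70 (0.0395) and -4.38 ± 0.77 (0.00188) in these comparisons.

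Among calcium channel modulators and scaffolds, 15 of 16 were tested: 2 rose and 6 fell in tumor-derived against normal astrocytes (median -1.94), 0 rose and 2 fell against GNPs, and 1 rose and 4 fell in GNPs against normal astrocytes (-1.20). Calm3 and Calm2, which encode the channels' calcium sensor calmodulin, moved in opposite directions. Calm3 averaged 854 ± 243 CPM in tumor-derived astrocytes, 412 ± 70.8 CPM in GNPs and 355 ± 29.3 CPM in normal astrocytes, and rose by 1.27 ± 0.24 in tumor-derived against normal astrocytes (0.00268). Calm2 averaged 65.5 ± 4.86 CPM in tumor-derived astrocytes, 235 ± 26.7 CPM in GNPs and 565 ± 266 CPM in normal astrocytes, and fell by 3.11 ± 0.33 against normal astrocytes (6.22e-05) and fell by 1.91 ± 0.36 against GNPs (0.00867). How reads of near-identical pseudogene copies of these genes were counted is not given in the sources used here. Gem, a small GTPase that inhibits calcium channels, rose against normal astrocytes in tumor-derived astrocytes (log2 fold change 5.05 ± 1.43, 0.0191) and in GNPs (5.08 ± 1.52, 0.0303). Rims1, a presynaptic scaffold, fell by 4.04 ± 0.80 in GNPs against normal astrocytes (0.00363). Stac, an adaptor of L-type channels, was at 0 in GNPs and averaged 0.0274 CPM in tumor-derived astrocytes, against 25.1 ± 17.8 CPM in normal astrocytes (adjusted p = 0.00497 for GNPs against normal astrocytes).

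Of the sodium leak channel complex, 2 of 4 genes fell in tumor-derived and 1 in GNPs against normal astrocytes. Nalcn, the leak pore that sets resting excitability of neurons, fell by 3.0 ± 0.68 in tumor-derived astrocytes (0.0064), and its partner Unc80 fell by 3.41 ± 0.52 in tumor-derived astrocytes (0.000663) and fell by 3.18 ± 0.69 in GNPs (0.00601). Of the calcium stores, pumps, exchangers and buffers, 17 of 19 were tested, with 0 higher and 10 lower in tumor-derived than in normal astrocytes (median -2.67), 5 higher and 0 lower than in GNPs (1.68), and 0 higher and 10 lower in GNPs than in normal astrocytes (-3.38). Atp2a2, the common calcium pump of the endoplasmic reticulum, averaged 56.1 ± 25.5 CPM in tumor-derived astrocytes, 108 ± 25.6 CPM in GNPs and 1178 ± 551 CPM in normal astrocytes, and fell by 4.39 ± 0.43 in tumor-derived against normal astrocytes (3.85e-05). Atp2a3, a pump known from Purkinje cells, averaged 1.02 ± 0.373 CPM in tumor-derived astrocytes, 0 CPM in GNPs and 97.1 ± 36.3 CPM in normal astrocytes. It fell by 6.57 ± 0.55 in tumor-derived against normal astrocytes (2.8e-05) and was called between GNPs and both other groups. The buffer Calb2, a granule and unipolar brush cell gene, was higher by 4.76 ± 0.82 in tumor-derived astrocytes than in GNPs (0.00546), and Calb1, a Purkinje cell buffer, fell by 10.70 ± 1.25 in GNPs against normal astrocytes (0.000121). Calb1, Calb2, Itpr1 and Pvalb of this list also stand on the neuronal marker lists.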

How the data were processed

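Raw read counts per gene for the 12 libraries were taken as the authors deposited them, in 1 table of 47284 lines. Reads were checked with FastQC and aligned with STAR to mm10, per the submitters' processing notes. Which program and annotation counted the reads, and whether by strand, is not given in the sources used here. Removing 767 repeated lines left 46517 genes. Libraries were grouped by labelled cell type and numbered in accession order. Each title holds a number of its own that the labels do not explain, so whether libraries came from separate animals or cultures is not known, and p-values reflect the spread between libraries alone, which may be technical.

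GNP libraries 1, 2 and 4 were summed into 1 sample, because a chi-square comparison of counts (on genes whose pair sum was 10 or more) put them far closer than other pairs. Library 1 still differed from the other two beyond counting noise. The 16374 genes passing filterByExpr (minimum count 10, minimum total 15) were fitted with edgeR 4.0.16 in R 4.3.3: TMM scaling, 3 group means, robust quasi-likelihood F-test, 7 residual degrees of freedom, biological coefficient of variation 0.783. Benjamini-Hochberg adjustment ran over all tested genes, with calls at an adjusted p under 0.05. Each SE is the fold change divided by the square root of F. The script was tested on simulated data. Levels are TMM-scaled CPM of the 12 libraries, with GNP means over n = 2.

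Against a group with 0 counts in every library, a fold is a lower bound with 3 counts per library as the floor. With 1 to 3 counts in a group, the count ratio and its exact 95% interval are given. Both cover counting error only, since the reads carry no molecular identifiers. Alternatives were DESeq2 1.42.0, other scalings and filters, all 12 libraries entered separately, the 2 groups alone, GNP library 3 alone, and each library left out.

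Every channel gene found by the symbol rule enters the counts, and a few genes are not reported here by name. Genes called in a comparison, or with at least 10 counts in 4 libraries, are given with values. From each partner list the text names the 2 with the smallest adjusted p in each direction. The channel genes, partner lists and marker lists were chosen with earlier results of these data known.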

Additional observations from a re-analysis of the deposited data

Results flagged for a closer look

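Of 64 sets of 4 values (32 tested genes in each astrocyte group), 5 had 1 library whose gap to the others exceeded the 95% limit for a single outlying value. For values with a Gaussian spread, chance alone flags about 1 in 20, and CPM near 0 need not keep that rate. Cacna1f and Cacng1, at 0 in all normal libraries, could not be flagged there. In tumor-derived astrocytes all 3 flags were in replicate 1. It had 306 CPM of Cacna1a (123 to 153 CPM in the other 3 libraries), 104 CPM of Cacna1e (38.6 to 44.8 CPM) and 24.9 CPM of Cacna1i (7.34 to 10.2 CPM). That library also had the highest Purkinje cell, interneuron and striated muscle sums of its group, and their part in these values was not tested.

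In normal astrocytes, Cacna2d1 stood at 13.5 CPM in replicate 2, against 0.339 to 1.17 CPM in the other 3 libraries. Scn3b stood at 0.169 CPM in replicate 3 and at 0 in the others. The Scn3b value rests on 2 counts.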

How the results depend on the processing

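Each result was recomputed under 20 alternatives. No called channel gene changed sign in any of them. Of the calls, 11 of 17 between tumor-derived and normal astrocytes, 1 of 9 between tumor-derived astrocytes and GNPs and 8 of 16 between GNPs and normal astrocytes held in all 20. Cacna1f held between tumor-derived and normal astrocytes in the 19 that tested it. Alternatives that left out only libraries of the third group kept every library of the 2 groups compared. They therefore bear less on a call between those groups. The share of all called genes that held was not counted. Genes not called that gained a call in at least 1 alternative numbered 6, 5 and 5.

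Against normal astrocytes, the 5 genes higher in tumor-derived astrocytes became 8 with all 12 libraries separate and 8 with DESeq2, and 4 to 8 with 1 library left out, while the 12 lower ones became 8 to 13. The 9 genes higher in tumor-derived astrocytes than in GNPs became 1 with GNP library 3 alone and 4 to 10 with 1 library left out, the lowest without GNP replicate 3, and reached 13 at most. None was lower than in GNPs in any alternative. The 3 genes higher in GNPs than in normal astrocytes became 5 with DESeq2, 0 with the 2 groups alone and 1 to 4 with 1 library left out. The 13 lower ones became 8 with the 2 groups alone and 11 to 13 with 1 library left out. Those 13 became 15 with all 12 libraries separate and 16 with DESeq2. The cause was not tested.

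Over all genes, counts ranged from 2092 to 3621 higher and 1626 to 2891 lower in tumor-derived than in normal astrocytes (2928 and 2357 as reported), from 170 to 2900 and 14 to 1866 against GNPs (1084 and 533), and from 762 to 2933 and 1000 to 3423 in GNPs against normal astrocytes (2048 and 1903). Another scaling moved the median of all genes by up to 0.21 on the log2 scale (upper quartile, tumor-derived over normal astrocytes). No paired analysis was possible because the labels give the groups no shared replicate numbers. GNP comparisons rest on n = 2, and differences near the floor of 3 counts per library were not detectable at this depth.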
